A study of Homo sapiens with 18 samples.

Results

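The genes described are 36 genes of glycolysis and of the response to low oxygen, found by their symbol among the 62754 genes of the count table. They are 2 glucose transporters, 15 glycolytic enzymes, 3 PFKFB enzymes that set the level of fructose 2,6-bisphosphate, 4 genes of pyruvate and lactate fate, 4 genes that encode HIF alpha subunits or the prolyl hydroxylases that mark them for degradation, and 8 other hypoxia-response genes. RNA was sequenced from EA.hy926, a cell line made by fusing human umbilical vein endothelial cells with a lung carcinoma line. Mock cells received the transfection reagent alone, siELMO1 cells a pool of siRNAs against ELMO1 at 10 nM, and siNT cells an siRNA without a target. By the study's methods all of them were starved overnight in low serum before 0 h. Cells were collected 48 h after transfection (0 h) or after 24 h more with poly(I:C) at 1 μg/ml, a synthetic double-stranded RNA. Each of the 6 conditions had 3 libraries, which the study calls biological replicates. The labels name no change in the oxygen supply in any condition. Every condition comes from 1 cell line, and poly(I:C) and the further 24 h in culture cannot be told apart, since none of the samples was kept to 24 h without it.

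Glycolysis turns glucose into pyruvate in the cytosol, and lactate dehydrogenase converts pyruvate to lactate for export. Endothelial cells draw much of their ATP from this route even in oxygen. When oxygen is low, prolyl hydroxylases slow down, HIF alpha subunits are no longer degraded, and with ARNT they bind DNA and raise most glycolytic genes together with genes of vessel growth and mitophagy. HIF proteins are controlled mainly by their stability, so transcript levels do not measure HIF activity.

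Estimated counts summed to between 40.4 and 73.9 M per library. These totals exceed the number of paired-end reads that the study reports per sample, so they are not the depth of sequencing. Levels of a gene between libraries are in CPM, the count scaled to library size with TMM factors. ELMO1, an activator of the small GTPase RAC1 and the targeted gene, stood at 3.04, 2.99 and 3.03 CPM in Mock, 2.85, 2.66 and 3.32 in siNT and 0.299, 0.301 and 0.419 in siELMO1 at 0 h. At 24 h it stood at 1.52, 2.98 and 2.45 CPM in Mock, 3.38, 2.98 and 3.59 in siNT and 0.288, 0.155 and 0.36 in siELMO1. All 6 siELMO1 libraries were below all 12 control libraries. At 0 h, replicate 1 of siELMO1 stood apart from the other 2, with a chi-square per degree of freedom over genes of 60.4 and 67.1 against 9.44 between them, and mitochondrially encoded genes took 1.86% of its counts against 4.02% and 3.95%. Several results that rest on it are given with and without it, but not every call that changes without it is listed. Of 10 endothelial markers 8 reached 1 CPM in some library, including PECAM1 and CDH5. EMCN and CLDN5 did not. Of 9 lung epithelial markers 4 did, among them KRT8 and KRT18, and CDH1 was at 0 counts throughout. Of 3 leukocyte markers 1 did. PTPRC stayed under 1 CPM in every library, and CD68 stood at 32.2 to 97.1 CPM at 0 h and 137 to 282 CPM at 24 h. Genes with at least 100 counts in all and at least 1 CPM in some library were tested, 15167 in number, by edgeR's quasi-likelihood test with Benjamini-Hochberg adjustment over all of them. A gene is said to have risen or fallen where the adjusted p was under 0.05.

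Of the 36 genes, 33 passed this filter on low counts. ALDOC, the aldolase of brain, had 0.0399 to 0.583 CPM. EGLN3, a prolyl hydroxylase, had 5 counts over all 18 libraries. CA9, a carbonic anhydrase of the cell surface and a classical HIF target, had 0 counts in every library, which allows up to 0.0384 to 0.0753 CPM per library if 0 is taken to allow 3 counts, by counting error alone. Estimated counts outnumber the paired-end reads reported, so the true bound may be higher. The other 33 covered every role, and their levels in all libraries, relative to Mock at 0 h, are shown in the heat map.

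**Figure D1:**
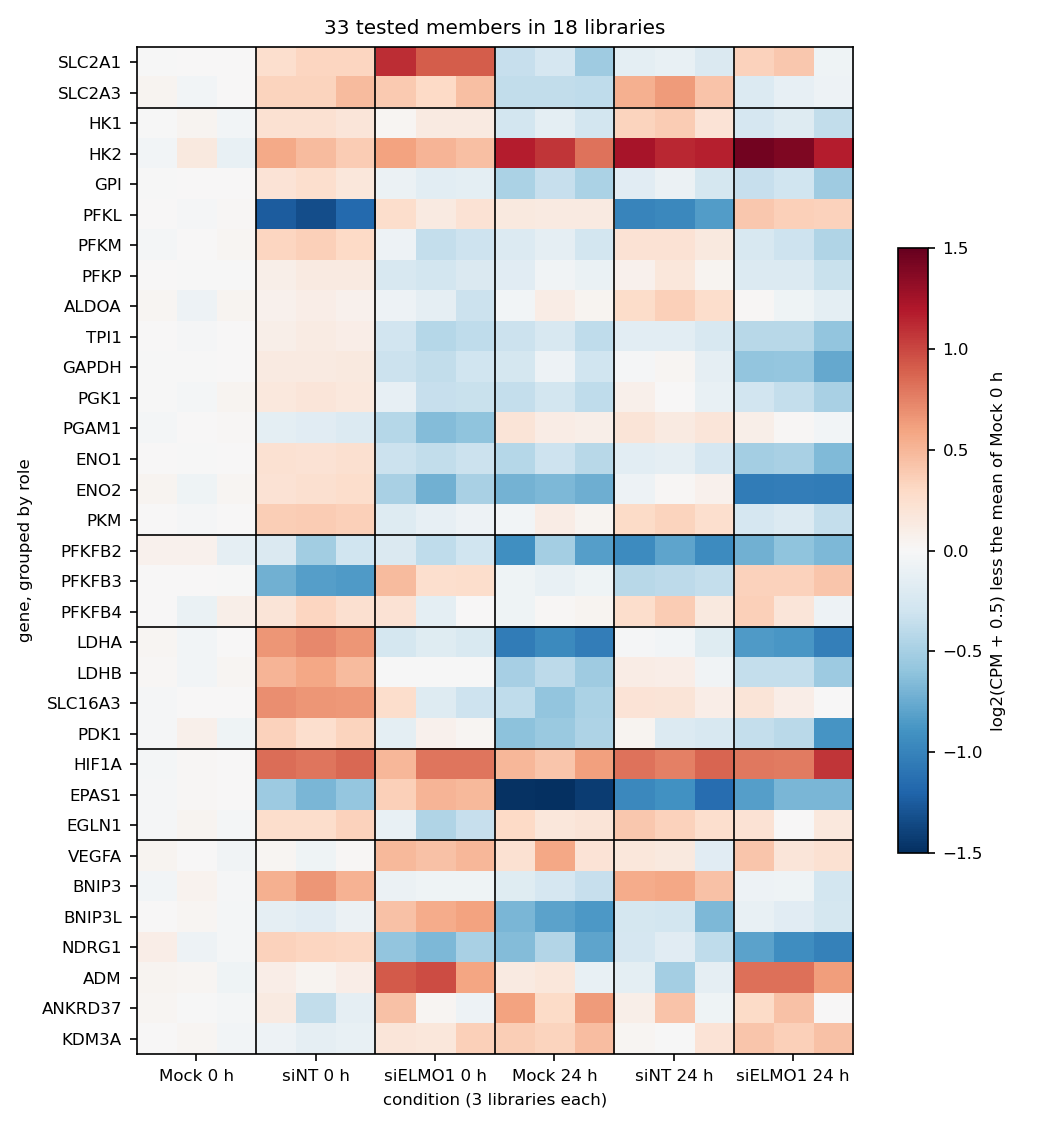
Heat map of the 33 tested genes (rows, grouped by role as in the opening) in the 18 libraries (columns, 3 per condition). Colour gives log2(CPM + 0.5) less the mean of the 3 Mock libraries at 0 h. PFKL and PFKFB3 were low in the 6 siNT libraries, HIF1A was above Mock at 0 h in every other condition, and HK2 was highest at 24 h.

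Levels of different genes were compared as TPM, a share of all transcripts that divides counts by transcript length. In Mock at 0 h, GAPDH, the dehydrogenase of glyceraldehyde 3-phosphate, was the most abundant at 7510 ± 53.5 TPM (SD, n = 3). The enolase ENO1 with 2900 ± 13.4 TPM and the pyruvate kinase gene PKM with 2890 ± 41.5 TPM followed. The 2 did not differ beyond their spread. LDHB with 2700 ± 41.8 TPM and LDHA with 2650 ± 66.2 TPM, the subunits of lactate dehydrogenase, came next and likewise did not differ beyond their spread. The order of these 4 depends on the length used. With the gene counts over the length of all exons together, GAPDH was at 7480 TPM, LDHB at 2140, ENO1 at 1800, PKM at 1390 and LDHA at 1190. At the low end of the tested genes stood PDK1, the kinase that switches off pyruvate dehydrogenase, with 2.32 ± 0.666 TPM, and ANKRD37, an ankyrin-repeat gene of unclear role, with 3.87 ± 0.133 TPM. Among the glycolytic enzymes HK2, the inducible hexokinase, was at 8.74 ± 0.896 TPM against 189 ± 7.47 TPM for HK1, the form most tissues use. ENO2, the neuronal enolase, was at 17.6 ± 0.844 TPM. 15 of the 36 genes were at 100 TPM or more in Mock at 0 h, and 15 were when the gene counts were divided by the length of all exons together. The 15 enzymes together made up 1.72, 1.73 and 1.74% of all TPM in Mock, 1.84, 1.81 and 1.84% in siNT and 1.42, 1.29 and 1.34% in siELMO1 at 0 h, with no overlap between the 3 conditions. At 24 h the shares ran from 1.37 to 1.48% in Mock, from 1.58 to 1.68% in siNT and from 1.13 to 1.23% in siELMO1. GAPDH, ENO1 and PKM held most of this sum in every condition, so it says little about the less abundant enzymes.

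PKM makes 2 forms of pyruvate kinase by using 1 of 2 neighbouring exons. The M1 exon belongs to muscle and brain and the M2 exon to proliferating cells. Both exons have 167 bases, on the minus strand of chromosome 15 (GRCh38), the M1 exon at chr15:72203022-72203188 and the M2 exon at chr15:72202454-72202620. They are shown because only the bases in capitals, 62 positions at which the exons differ, separate the reads of one form from those of the other. The other 105 positions (62.9%) are identical. The sequences are those of the GENCODE transcripts PKM-201 and PKM-202.
M1 exon: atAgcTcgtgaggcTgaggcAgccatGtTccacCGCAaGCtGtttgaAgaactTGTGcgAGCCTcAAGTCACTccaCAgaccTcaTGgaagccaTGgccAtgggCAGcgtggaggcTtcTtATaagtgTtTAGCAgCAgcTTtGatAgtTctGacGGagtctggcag
M2 exon: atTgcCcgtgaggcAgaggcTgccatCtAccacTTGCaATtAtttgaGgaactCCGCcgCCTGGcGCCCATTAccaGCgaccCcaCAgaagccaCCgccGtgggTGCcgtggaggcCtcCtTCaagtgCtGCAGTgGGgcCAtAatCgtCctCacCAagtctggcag
The M2 form prevailed in every library. Transcripts with the M2 exon held 91.2, 91.4 and 90% of the PKM transcript counts in Mock, 89.9, 87.4 and 84.6% in siNT and 93, 92.5 and 93.4% in siELMO1 at 0 h. The siELMO1 libraries were the highest and the siNT libraries the lowest, without overlap. The means differed by 5.68 percentage points between siELMO1 and siNT (exact two-sided permutation test, p = 0.1, which is the smallest p that 3 against 3 allow). At 24 h the shares overlapped, from 81 to 90.4% in Mock, 87.4 to 91.1% in siNT and 89.8 to 93.6% in siELMO1. Transcripts with the M1 exon held 3.08 to 12.2% over all libraries. These shares are estimates of StringTie from reads that mostly fall on shared exons, and the files give no depth for the exons themselves.

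HIF binds the letters ACGTG and, less often, the letters GCGTG. In windows of 300 bases around gene starts from RefSeq (GRCh38.p14), 31 of the 36 genes had an entry, and SLC2A3, PFKFB2, VEGFA, BNIP3L and NDRG1 had none. Both strands were searched, so that the first motif also reads as CACGT and the second also reads as CACGC, and a palindrome of the first counts on both strands. At least 1 match stood in a window of 29 of the 31 genes (93.5%), against 69.6% of the tested genes with an entry and 52.4% of all genes of the table that had one. Genes with several windows count once, and a gene with more windows has more chances of a match. The 31 genes had 59 windows, and the 27305 genes of the table with an entry had 35116. The shares were not corrected for this. It was in 14 of the 15 glycolytic enzymes and in 5 of 5 other hypoxia-response genes. A match is a description of the letters and not a binding site. The first window of 4 genes follows, with the matches in capitals. LDHA and GAPDH were lower in siELMO1 than in both controls at 0 h, and PFKL and SLC2A1 were higher. LDHA is shown at chr11:18394313-18394612 (plus strand), GAPDH at chr12:6535014-6535313 (plus strand), PFKL at chr21:44299803-44300102 (plus strand) and SLC2A1 at chr1:42958819-42959118 (minus strand). In GENCODE the GAPDH gene starts at chr12:6534512, so the GAPDH window lies inside the gene and does not cover that start.
LDHA: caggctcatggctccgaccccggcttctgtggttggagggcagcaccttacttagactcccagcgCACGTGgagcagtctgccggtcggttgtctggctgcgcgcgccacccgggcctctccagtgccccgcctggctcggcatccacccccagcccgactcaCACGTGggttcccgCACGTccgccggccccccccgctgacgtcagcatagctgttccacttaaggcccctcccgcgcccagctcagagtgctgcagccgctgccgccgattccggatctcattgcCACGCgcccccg
GAPDH: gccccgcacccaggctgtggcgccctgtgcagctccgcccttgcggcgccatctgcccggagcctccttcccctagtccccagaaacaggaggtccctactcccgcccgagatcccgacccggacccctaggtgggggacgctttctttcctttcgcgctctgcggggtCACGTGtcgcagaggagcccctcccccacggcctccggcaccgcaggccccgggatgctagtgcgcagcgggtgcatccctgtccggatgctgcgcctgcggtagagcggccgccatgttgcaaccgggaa
PFKL: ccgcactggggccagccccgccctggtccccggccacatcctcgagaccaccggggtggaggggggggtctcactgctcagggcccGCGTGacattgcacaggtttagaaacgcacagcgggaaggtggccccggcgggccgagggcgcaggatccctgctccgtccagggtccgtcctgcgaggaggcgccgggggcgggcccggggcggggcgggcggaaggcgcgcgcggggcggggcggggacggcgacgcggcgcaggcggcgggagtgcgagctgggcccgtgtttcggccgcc
SLC2A1: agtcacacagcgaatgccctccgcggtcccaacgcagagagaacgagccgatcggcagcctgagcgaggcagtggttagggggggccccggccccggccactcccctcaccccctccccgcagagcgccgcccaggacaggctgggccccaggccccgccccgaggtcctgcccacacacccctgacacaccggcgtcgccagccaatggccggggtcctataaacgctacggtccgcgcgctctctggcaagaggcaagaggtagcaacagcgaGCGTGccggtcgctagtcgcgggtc
The LDHA window held 6 matches, the GAPDH window 2 and the PFKL and SLC2A1 windows 1 each. Genes that moved in opposite directions both held the letters.

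Cells with less ELMO1 had lower transcript levels of most glycolytic enzymes before poly(I:C) and higher levels of the glucose transporter SLC2A1 and of several other hypoxia-response genes. Against siNT at 0 h, 18 of the 33 tested genes fell and 8 rose, where 31.3% of all tested genes fell and 31.3% rose. Against Mock, 14 fell and 11 rose, where 22.4% of all tested genes fell and 27.9% rose. Both comparisons use the same siELMO1 libraries. Without replicate 1 of siELMO1, 18 fell and 8 rose against siNT, and 14 fell and 11 rose against Mock. In whole-culture RNA, fewer cells with a transcript and less transcript per cell cannot be told apart.

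Of the 14 tested glycolytic enzymes, 11 fell and 1 rose against siNT, with a median log2 fold change of -0.40. Of the 7 tested other hypoxia-response genes, 2 fell and 4 rose, with a median of 0.36. Against Mock the medians were -0.24 for the enzymes, of which 10 fell and 2 rose, and 0.24 for the others, of which 1 fell and 4 rose. The median over all tested genes was 0.00093 against siNT and 0.041 against Mock. The groups of genes were not tested against each other. All 8 tested enzymes from the aldolase step to pyruvate kinase fell against both controls, neither hexokinase passed the test against siNT, and PFKL rose against both. Against Mock, the falls of PKM and ALDOA were not kept without 1 of the libraries and the rise of PFKL was not kept with scaling by library totals alone.

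**Figure D2:**
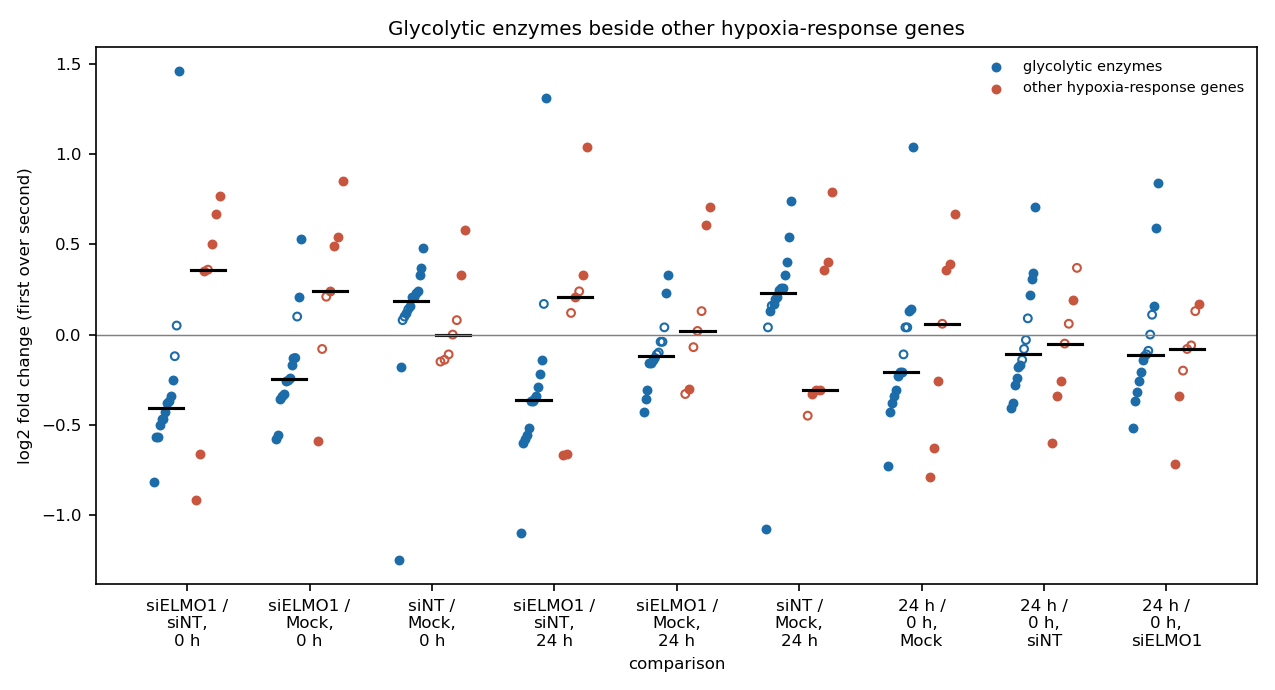
Log2 fold change of each tested glycolytic enzyme (blue, 14 genes) and each tested other hypoxia-response gene (red, 7 genes) in 9 comparisons, with 0 marked by a grey line. Filled points passed an adjusted p under 0.05, open points did not, and black lines are medians. In siELMO1 against siNT at 0 h the medians were -0.40 and 0.36, and PFKL is the enzyme far above the rest.

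GAPDH stood at 4030, 4030 and 4070 CPM in Mock, 4440, 4440 and 4480 in siNT and 3240, 3120 and 3290 in siELMO1 at 0 h. GAPDH is widely used as a reference in qRT-PCR, and the study's methods list primers for it. The siELMO1 libraries were the lowest and the siNT libraries the highest, without overlap. The log2 fold change in siELMO1 was -0.47 ± 0.06 (SE, adjusted p = 1.3e-06) against siNT and -0.33 ± 0.06 (SE, adjusted p = 1.1e-04) against Mock. ENO1 changed by -0.57 ± 0.05 against siNT and -0.34 ± 0.05 against Mock on the log2 scale, and TPI1, the triose phosphate isomerase, by -0.47 ± 0.05 and -0.36 ± 0.05. PGAM1, a phosphoglycerate mutase, stood at 215, 220 and 222 CPM in Mock, 197, 195 and 190 in siNT and 163, 139 and 144 in siELMO1. It was lowest in siELMO1 and, unlike most of the enzymes, lower in siNT than in Mock. ENO2 stood at 16.9, 15.7 and 16.8 CPM in Mock, 19.2, 19.5 and 19.9 in siNT and 11.6, 9.77 and 11.6 in siELMO1 and had the largest fall among the enzymes, by -0.82 ± 0.07 (SE, adjusted p = 1.3e-08) on the log2 scale against siNT. PGK1, PFKP, PFKM and ALDOA fell as well, with log2 fold changes of -0.43, -0.37, -0.57 and -0.25 against siNT and -0.26, -0.25, -0.24 and -0.17 against Mock. PKM fell against siNT with a log2 change of -0.50 ± 0.05 (SE, adjusted p = 3.9e-08). Its fall against Mock, -0.13 ± 0.05 (SE, adjusted p = 0.029), did not pass without replicate 1 or without replicate 2 of siELMO1, and without replicate 1 it was -0.10 (adjusted p = 0.091). GPI, the phosphoglucose isomerase, had a log2 difference of -0.34 ± 0.06 (SE, adjusted p = 7.2e-05) against siNT and of -0.13 ± 0.06 (SE, adjusted p = 0.071) against Mock. HK1 had -0.12 ± 0.06 (SE, adjusted p = 0.086) against siNT and 0.10 ± 0.06 (SE, adjusted p = 0.16) against Mock. HK2 had 0.05 ± 0.09 (SE, adjusted p = 0.66) against siNT and rose by 0.53 ± 0.09 (SE, adjusted p = 1.4e-04) against Mock.

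PFKL, the liver form of phosphofructokinase, which commits sugar to glycolysis, set siNT apart. It stood at 101, 99.2 and 102 CPM in Mock, 42.2, 39.9 and 44.7 in siNT and 121, 111 and 117 in siELMO1 at 0 h. The siNT libraries held less than any Mock or siELMO1 library, and the log2 fold change of siELMO1 was 1.46 ± 0.05 (SE, adjusted p = 1.4e-13) against siNT and 0.21 ± 0.05 (SE, adjusted p = 0.0015) against Mock. At 24 h the levels were 112, 111 and 111 CPM in Mock, 50.4, 51.2 and 56 in siNT and 134, 129 and 128 in siELMO1, again lowest in siNT. The level in siNT relative to Mock was -1.25 ± 0.05 (SE, adjusted p = 2.3e-12) at 0 h and -1.08 ± 0.05 (SE, adjusted p = 4.8e-11) at 24 h on the log2 scale. In Mock the transcript PFKL-201 held 84.4 ± 3.83% of the PFKL counts at 0 h (SD, n = 3) and in siNT 75 ± 8.1%. A transcript with a retained intron, PFKL-205, held 3.87 to 6.31% in Mock and 8.14 to 15.7% in siNT, without overlap. These are shares of a PFKL total that was lower in siNT, so they do not show that PFKL-205 itself rose. Its own level was not compared.

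PFKFB3, the bifunctional enzyme that makes the activator of phosphofructokinase and drives glycolysis in sprouting endothelium, showed the same order. It stood at 75.7, 76.1 and 75 CPM in Mock, 45.6, 42.5 and 41.8 in siNT and 105, 90.4 and 90.8 in siELMO1 at 0 h. The siNT libraries were the lowest and the siELMO1 libraries the highest, without overlap. The log2 fold change of siELMO1 was 1.14 ± 0.05 (SE, adjusted p = 5.8e-12) against siNT and 0.34 ± 0.05 (SE, adjusted p = 4.6e-05) against Mock. PFKFB2, of heart, and PFKFB4 had log2 fold changes of 0.04 ± 0.11 (SE, adjusted p = 0.77) and -0.22 ± 0.11 (SE, adjusted p = 0.081) against siNT. The value of PFKFB4 was -0.33 (adjusted p = 0.019) without replicate 1 of siELMO1. PFKFB2 stood at 16.3, 16.4 and 14.2 CPM in Mock, 13.4, 10.7 and 12.6 in siNT and 13.3, 11.9 and 12.6 in siELMO1, and fell in siELMO1 against Mock with a log2 change of -0.31 ± 0.11 (SE, adjusted p = 0.022), a call not kept without any 1 of 4 libraries (Mock replicate 1 or 2, siELMO1 replicate 2 or 3).

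SLC2A1, the basal glucose transporter GLUT1, stood at 50.6, 50.9 and 51 CPM in Mock, 60.8, 63.5 and 63.5 in siNT and 110, 96.1 and 95.6 in siELMO1 at 0 h. Every siELMO1 library was above every control library. The log2 fold change was 0.68 ± 0.09 (SE, adjusted p = 5.6e-06) against siNT and 0.98 ± 0.09 (SE, adjusted p = 1.2e-07) against Mock, or 1.98-fold. SLC2A3, the neuronal transporter GLUT3, stood at 52.1, 49.1 and 51 CPM in Mock, 63.8, 64 and 70.6 in siNT and 66.7, 62.4 and 69.5 in siELMO1. Mock was the lowest, and siNT and siELMO1 overlapped.

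LDHA, the subunit that favours lactate, stood at 1650, 1580 and 1630 CPM in Mock, 2560, 2670 and 2560 in siNT and 1350, 1430 and 1380 in siELMO1 at 0 h. The siNT libraries were far above the others, and siELMO1 was below Mock without overlap. The log2 fold change of siELMO1 was -0.91 ± 0.05 (SE, adjusted p = 5.8e-11) against siNT and -0.23 ± 0.05 (SE, adjusted p = 0.0013) against Mock. LDHB had a log2 fold change of -0.52 ± 0.06 against siNT and -0.01 ± 0.06 (SE, adjusted p = 0.95) against Mock. SLC16A3, the lactate exporter MCT4, stood at 176, 179 and 179 CPM in Mock, 288, 283 and 280 in siNT and 214, 156 and 143 in siELMO1. Its siNT libraries were the highest, and the siELMO1 libraries overlapped those of Mock. Against siNT it fell with a log2 change of -0.73 ± 0.10 (SE, adjusted p = 7.0e-06). Against Mock it had -0.06 ± 0.10 (SE, adjusted p = 0.67), and -0.25 (adjusted p = 0.0024) without replicate 1 of siELMO1, which held the highest of the 3 levels. PDK1 fell against siNT with a log2 change of -0.35 ± 0.13 (SE, adjusted p = 0.027), a call not kept without that library (adjusted p = 0.1) or without siNT replicate 1 or 3.

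The HIF alpha subunits went opposite ways in siNT. HIF1A, the alpha subunit found in most cells, stood at 274, 284 and 282 CPM in Mock, 502, 487 and 507 in siNT and 394, 487 and 489 in siELMO1 at 0 h. The siNT and siELMO1 libraries were all above Mock, and replicate 1 of siELMO1 was below the other 2. The log2 fold change was 0.83 ± 0.08 (SE, adjusted p = 2.1e-07) in siNT against Mock, 0.71 ± 0.08 (SE, adjusted p = 1.4e-06) in siELMO1 against Mock and -0.13 ± 0.08 (SE, adjusted p = 0.19) in siELMO1 against siNT. HIF1A lies at chr14:61695513-61748259 and EPAS1 at chr2:46293667-46386697 (GRCh38, plus strand). EPAS1, which encodes HIF-2 alpha and was first found in endothelium, stood at 251, 258 and 256 CPM in Mock, 174, 158 and 171 in siNT and 327, 362 and 358 in siELMO1. The siNT libraries were the lowest, Mock was between and siELMO1 the highest, with no overlap. The log2 fold change was -0.60 ± 0.06 (SE, adjusted p = 2.6e-07) in siNT against Mock, 0.45 ± 0.06 (SE, adjusted p = 7.2e-06) in siELMO1 against Mock and 1.06 ± 0.06 (SE, adjusted p = 8.3e-11) in siELMO1 against siNT. EGLN1, the main prolyl hydroxylase, fell in siELMO1 with a log2 change of -0.59 ± 0.08 (SE, adjusted p = 2.1e-06) against siNT and -0.30 ± 0.08 (SE, adjusted p = 0.003) against Mock.

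The other hypoxia-response genes did not move as 1 group. ADM, which encodes the vessel-dilating peptide adrenomedullin, stood at 20, 19.8 and 18.6 CPM in Mock, 20.8, 20.1 and 20.8 in siNT and 37.4, 38.7 and 29.6 in siELMO1 at 0 h. All siELMO1 libraries were above all controls, with log2 fold changes of 0.77 ± 0.11 (SE, adjusted p = 6.5e-06) against siNT and 0.85 ± 0.11 (SE, adjusted p = 3.5e-06) against Mock. BNIP3L and BNIP3 encode receptors of mitophagy. BNIP3L stood at 111, 113 and 109 CPM in Mock, 101, 99 and 104 in siNT and 151, 164 and 169 in siELMO1 and rose in siELMO1 by 0.67 ± 0.08 against siNT and 0.54 ± 0.08 against Mock on the log2 scale. BNIP3 stood at 41.2, 43.8 and 41.9 CPM in Mock, 61.4, 67.1 and 61.1 in siNT and 39.7, 40.4 and 40.3 in siELMO1. It was high in siNT alone, so that siELMO1 had -0.66 ± 0.06 (SE, adjusted p = 7.5e-08) against siNT and -0.08 ± 0.06 (SE, adjusted p = 0.34) against Mock. VEGFA, the vascular growth factor, stood at 13.4, 13 and 12.5 CPM in Mock, 13.2, 12.4 and 13.1 in siNT and 18.4, 17.7 and 18.5 in siELMO1 and rose in siELMO1 by 0.50 ± 0.10 against siNT and 0.49 ± 0.10 against Mock. NDRG1, a gene of differentiation and stress, stood at 67.8, 59.9 and 61.7 CPM in Mock, 80.3, 79 and 78.4 in siNT and 41.5, 39.4 and 45 in siELMO1. It was lowest in siELMO1, with a log2 change of -0.92 ± 0.08 (SE, adjusted p = 3.4e-08) against siNT and -0.59 ± 0.08 (SE, adjusted p = 1.4e-05) against Mock. KDM3A, a histone demethylase, rose by 0.35 ± 0.06 and 0.24 ± 0.06 on the log2 scale against siNT and Mock. ANKRD37 had 0.36 ± 0.25 (SE, adjusted p = 0.23) against siNT, and 0.12 (adjusted p = 0.72) without replicate 1 of siELMO1.

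**Figure D3:**
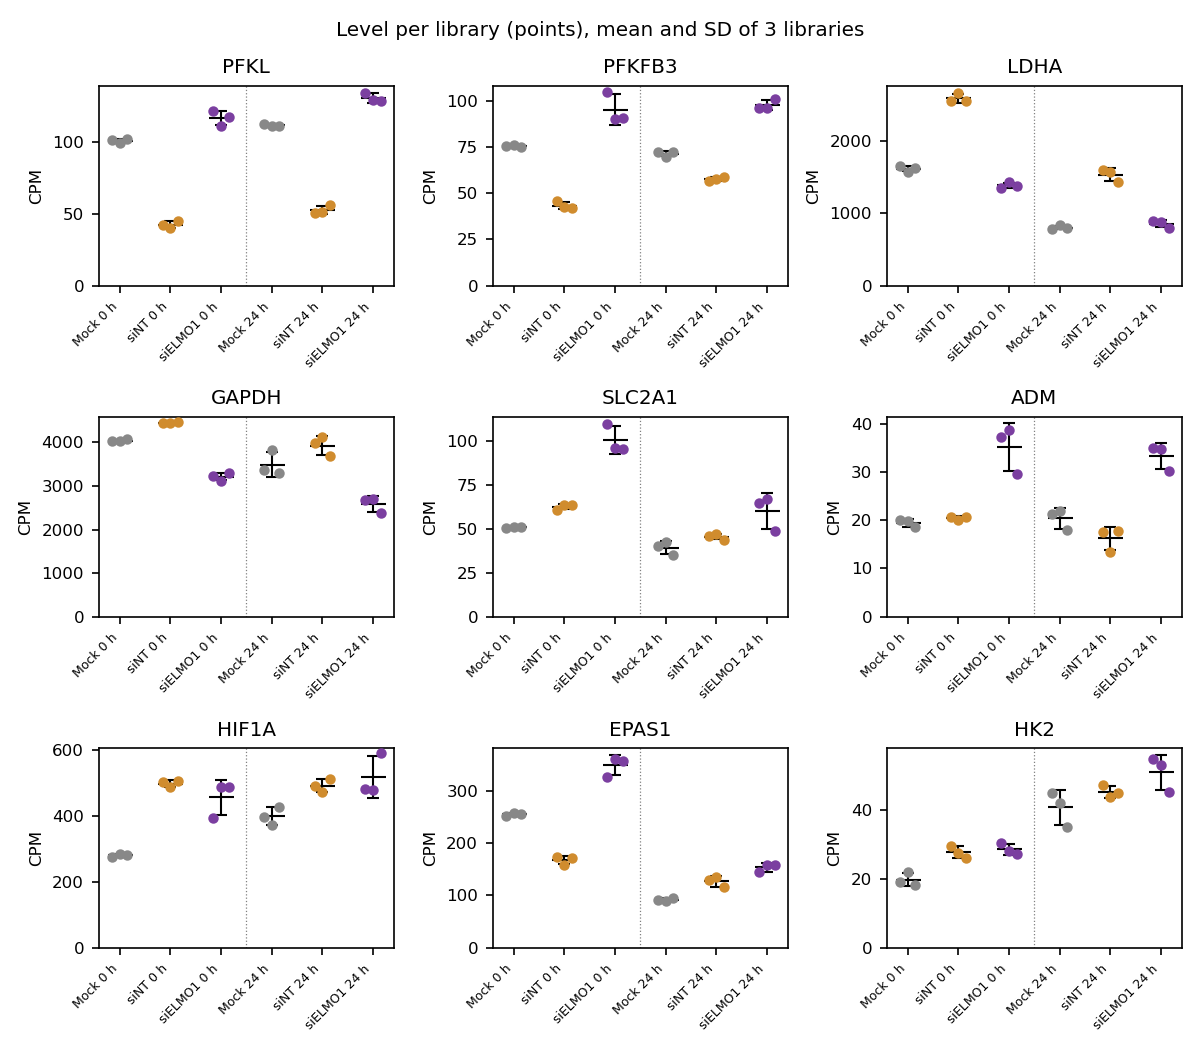
CPM of 9 genes in each library (points; grey Mock, orange siNT, purple siELMO1), with the mean and SD of 3 libraries in black, at 0 h to the left of the dotted line and 24 h to the right. Each axis starts at 0. PFKL and PFKFB3 were lowest in siNT, LDHA was highest in siNT, and SLC2A1 and ADM were highest in siELMO1 at both times.

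Transcripts of proliferation and of cell type also differed between the conditions. The summed CPM of 6 proliferation markers, all of which fell in siELMO1 at 0 h against both controls, ran from 460 to 474 in siELMO1, 1570 to 1630 in siNT and 1720 to 1810 in Mock at 0 h. At 24 h the sums were 810 to 949, 938 to 1020 and 1200 to 1310 in the same order. The 9 lung epithelial markers summed to 2100 to 2230 CPM in siELMO1, 1880 to 1910 CPM in siNT and 1520 to 1540 CPM in Mock at 0 h. The 10 endothelial markers summed to 2610 to 2860 CPM in siELMO1, 1870 to 1950 CPM in siNT and 1850 to 1960 CPM in Mock at 0 h. The part of these in the levels of the glycolytic genes was not tested.

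Cells with the non-targeting siRNA also differed from Mock, with more of these genes higher than lower. Since siNT was the control of the first comparison, its own levels enter the siELMO1 values against it. In siNT against Mock at 0 h, 19 of the 33 rose and 5 fell, where 27.6% of all tested genes rose and 24% fell. Among the enzymes 9 rose and 2 fell, with a median log2 fold change of 0.19, and the 4 genes of pyruvate and lactate fate rose. Of the 19 rises, 7 (SLC2A1, HK1, GPI, PFKP, PGK1, ENO2 and PDK1) were not kept without at least 1 of the libraries, and 13 to 17 genes rose in the fits without 1 Mock or siNT library. LDHA rose by 0.68 ± 0.05 (SE, adjusted p = 6.6e-09), SLC16A3 by 0.67 ± 0.10 (SE, adjusted p = 3.0e-05), LDHB by 0.52 ± 0.06 (SE, adjusted p = 5.6e-07) and PDK1 by 0.33 ± 0.13 (SE, adjusted p = 0.041). The rise of PDK1 was not kept without any 1 of the 6 libraries. HK2 rose by 0.48 ± 0.09, PKM by 0.37 ± 0.05, PFKM by 0.33 ± 0.06 and ENO1 by 0.23 ± 0.05 on the log2 scale. PFKL was 2.38-fold lower. PFKFB3 fell with a log2 change of -0.80 ± 0.05 (SE, adjusted p = 1.7e-09), PFKFB2 with -0.35 ± 0.11 (SE, adjusted p = 0.011) (not kept without siNT replicate 2) and PGAM1 with -0.18 ± 0.05 (SE, adjusted p = 0.01). Of the 7 other hypoxia-response genes, BNIP3 rose by 0.58 ± 0.06 (SE, adjusted p = 6.7e-07) and NDRG1 by 0.33 ± 0.08 (SE, adjusted p = 0.003), and the other 5 did not pass the test. GAPDH, at 0.14 ± 0.06, TPI1, at 0.10 ± 0.05, and ALDOA, at 0.08 ± 0.06, did not pass it either.

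At 24 h most enzymes were still lower in siELMO1 than in siNT, and fewer of them passed the test against Mock. The study reports massive death of siNT cells by this time with poly(I:C), and less death of Mock and siELMO1 cells. Its part in the levels at 24 h and in the responses of siNT was not tested. Against siNT, 19 of the 33 genes fell and 7 rose, where 26.5% of all tested genes fell and 26% rose. Against Mock, 7 fell and 10 rose, where 22% fell and 21.6% rose. The count lower than in Mock was 3 without Mock replicate 2 and 4 without siELMO1 replicate 3. Of the 14 enzymes 12 fell against siNT (median log2 fold change -0.37) and 6 against Mock (median -0.12). GAPDH stood at 3360, 3830 and 3290 CPM in Mock, 3980, 4120 and 3680 in siNT and 2680, 2700 and 2380 in siELMO1, and the siELMO1 libraries were the lowest. It fell with a log2 change of -0.60 ± 0.06 (SE, adjusted p = 1.5e-07) against siNT and -0.43 ± 0.06 (SE, adjusted p = 8.4e-06) against Mock. ENO2 stood at 9.89, 10.1 and 9.71 CPM in Mock, 15.6, 16.7 and 17.2 in siNT and 7.72, 7.74 and 7.7 in siELMO1 and fell with a log2 change of -1.10 ± 0.07 (SE, adjusted p = 1.4e-09) against siNT, where no libraries overlapped. LDHA stood at 785, 833 and 791 CPM in Mock, 1600, 1580 and 1430 in siNT and 896, 881 and 797 in siELMO1. The siELMO1 libraries overlapped those of Mock and were below siNT, with -0.84 ± 0.05 (SE, adjusted p = 6.9e-10) against siNT and 0.10 ± 0.05 (SE, adjusted p = 0.14) against Mock.

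ADM stood at 21.4, 21.9 and 17.9 CPM in Mock, 17.5, 13.5 and 17.7 in siNT and 35, 34.9 and 30.3 in siELMO1 at 24 h, and all siELMO1 libraries were above the controls, by 1.04 ± 0.11 (SE, adjusted p = 4.7e-07) against siNT and 0.71 ± 0.11 (SE, adjusted p = 3.8e-05) against Mock on the log2 scale. SLC2A1 stood at 40, 42.6 and 35.1 CPM in Mock, 46, 46.9 and 43.8 in siNT and 64.6, 67.2 and 48.5 in siELMO1, highest in siELMO1, by 0.40 ± 0.10 (SE, adjusted p = 0.0018) against siNT and 0.62 ± 0.10 (SE, adjusted p = 4.6e-05) against Mock. SLC2A3, at 39.1, 39 and 38.8 CPM in Mock, 73.7, 79.1 and 68.6 in siNT and 43.8, 46.4 and 48 in siELMO1, was lower in siELMO1 than in siNT, with a log2 change of -0.68 ± 0.06 (SE, adjusted p = 5.5e-08), and higher than in Mock, with 0.24 ± 0.06 (SE, adjusted p = 0.0035). EPAS1 stood at 90.9, 88.2 and 95.1 CPM in Mock, 130, 136 and 115 in siNT and 144, 158 and 158 in siELMO1. Mock was now the lowest and siELMO1 the highest, without overlap, with 0.74 ± 0.06 (SE, adjusted p = 4.1e-08) against Mock and 0.27 ± 0.06 (SE, adjusted p = 0.0013) against siNT. HIF1A, at 396, 374 and 428 CPM in Mock, 492, 472 and 512 in siNT and 483, 480 and 591 in siELMO1, differed by 0.38 ± 0.08 (SE, adjusted p = 0.0013) from Mock and 0.07 ± 0.08 (SE, adjusted p = 0.48) from siNT. PFKFB3, at 72.3, 69.9 and 72.4 CPM in Mock, 56.7, 57.6 and 58.9 in siNT and 96.2, 96.4 and 101 in siELMO1, kept the order siNT, Mock, siELMO1. BNIP3L, at 68.6, 63.2 and 60.9 CPM in Mock, 92.6, 91.5 and 69.2 in siNT and 103, 98.2 and 92.4 in siELMO1, rose in siELMO1 with a log2 change of 0.61 ± 0.08 (SE, adjusted p = 1.3e-05) against Mock.

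In siNT against Mock at 24 h, 22 of the 33 rose and 5 fell, where 25.2% of all tested genes rose and 24.9% fell. The count that fell was 3 without Mock replicate 2. LDHA rose by 0.94 ± 0.05 (SE, adjusted p = 3.1e-10), SLC2A3 by 0.92 ± 0.06 (SE, adjusted p = 2.4e-09), BNIP3 by 0.79 ± 0.06 (SE, adjusted p = 2.5e-08) and ENO2 by 0.74 ± 0.07 (SE, adjusted p = 1.9e-07). BNIP3 stood at 37.2, 35.5 and 33.1 CPM in Mock, 62.4, 63.4 and 57.6 in siNT and 40.2, 40.5 and 34.8 in siELMO1, highest in siNT. Among the enzymes 11 rose and PFKL alone fell, and among the other hypoxia-response genes 3 rose and 3 fell (medians 0.23 and -0.31). The second median rests on 7 genes and was -0.17 without Mock replicate 2 and -0.2 without siNT replicate 3. The genes that fell in the latter group were VEGFA, ADM and KDM3A. The fall of VEGFA was not kept without Mock replicate 2 or siNT replicate 3, nor that of ADM without Mock replicate 1 or 2 or siNT replicate 2. Same-numbered libraries of siNT and Mock at 24 h deviated together, and with the replicate number as a block SLC2A1 also passed the test, at 0.22 (adjusted p = 0.039) against 0.22 ± 0.10 (SE, adjusted p = 0.07) without it.

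Between 0 h and 24 h of poly(I:C) SLC2A1, both lactate dehydrogenase genes and PDK1 fell and HK2 rose in every transfection. In Mock, 19 of the 33 fell and 8 rose, where 29.6% of all tested genes fell and 30.7% rose. The count that rose was 4 without any 1 of the Mock 0 h replicates or without Mock 24 h replicate 1. In siNT, 16 fell and 7 rose, where 25.2% fell and 28.6% rose. In siELMO1, 15 fell and 5 rose, where 26.9% fell and 28% rose. Without siELMO1 0 h replicate 1, 15 fell and 7 rose.

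These 3 comparisons share no library. In all of them 12 genes fell (SLC2A1, GPI, GAPDH, ENO1, ENO2, PFKFB2, LDHA, LDHB, PDK1, EPAS1, BNIP3L and NDRG1), where 11.6% of all tested genes did so. 4 genes rose in all of them (HK2, PFKL, PGAM1 and KDM3A), where 14.4% of all tested genes did. In Mock the rises of PFKL, at 0.14 ± 0.05 (SE, adjusted p = 0.019), PGAM1, at 0.13 ± 0.05 (SE, adjusted p = 0.046), EGLN1, at 0.22 ± 0.07 (SE, adjusted p = 0.017), and ANKRD37, at 0.67 ± 0.25 (SE, adjusted p = 0.028), were the 4 not kept without any 1 of those 4 libraries. In siELMO1 the rise of KDM3A was 0.17 ± 0.06 (SE, adjusted p = 0.026), and 0.14 (adjusted p = 0.085) without siELMO1 0 h replicate 1. It was not kept either without siELMO1 0 h replicate 2 or siELMO1 24 h replicate 1 or 3, and the rise of KDM3A in siNT was not kept without siNT 24 h replicate 3. That of PFKL in siELMO1 was not kept without siELMO1 0 h replicate 2. HK2 is thus the only 1 of the 4 that rose in all 3 whichever library was left out. Of the 12 that fell, 10 did so, since GAPDH and BNIP3L in siNT did not pass without siNT 24 h replicate 3. HK2 stood at 19.2, 22 and 18.3 CPM in Mock, 29.5, 27.7 and 26 in siNT and 30.4, 28.3 and 27.3 in siELMO1 at 0 h and 45.2, 42.3 and 35.1 CPM in Mock, 47.4, 43.9 and 45.1 in siNT and 55, 53.2 and 45.4 in siELMO1 at 24 h. Every library at 24 h was above every library at 0 h, and the log2 fold change was 1.04 ± 0.09 (SE, adjusted p = 3.2e-08) in Mock, 0.71 ± 0.09 (SE, adjusted p = 4.6e-06) in siNT and 0.84 ± 0.09 (SE, adjusted p = 6.4e-07) in siELMO1. LDHA fell with a log2 change of -1.02 ± 0.05 (SE, adjusted p = 1.3e-11), -0.76 ± 0.05 (SE, adjusted p = 1.2e-09) and -0.69 ± 0.05 (SE, adjusted p = 3.1e-09) in the same order. PFKFB2, at 8, 10.8 and 8.6 CPM in Mock, 7.87, 8.81 and 7.86 in siNT and 9.24, 10.1 and 9.59 in siELMO1 at 24 h, fell with a log2 fold change of -0.77 ± 0.11, -0.58 ± 0.11 and -0.39 ± 0.11. NDRG1, at 39.9, 46.4 and 36.1 CPM in Mock, 52.7, 56.1 and 48.5 in siNT and 35.8, 32.9 and 30.9 in siELMO1 at 24 h, fell with a log2 fold change of -0.63 ± 0.08, -0.60 ± 0.08 and -0.34 ± 0.08. The enzymes as a group had medians of -0.21, -0.11 and -0.11, and the other hypoxia-response genes of 0.06, -0.05 and -0.08. The value of the latter was 0.15 in Mock without Mock 24 h replicate 3 and -0.19 in siELMO1 without siELMO1 0 h replicate 3.

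**Figure D4:**
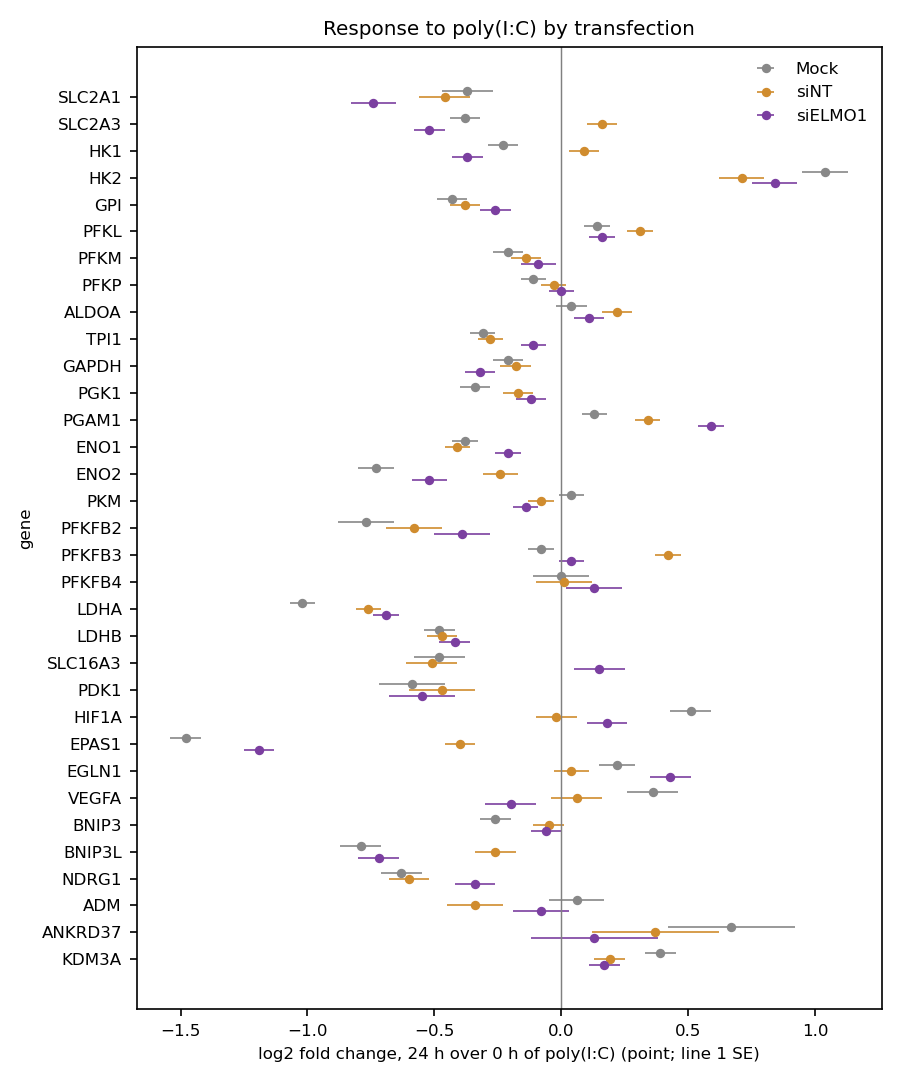
Log2 fold change of the 33 tested genes from 0 h to 24 h of poly(I:C) in Mock (grey), siNT (orange) and siELMO1 (purple), with lines of 1 SE either way. EPAS1 fell with a log2 fold change of -1.48 in Mock, -1.19 in siELMO1 and -0.40 in siNT, and HK2 rose in all 3.

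Some responses differed between transfections by the interaction of the same model, for which overlap of libraries has no meaning. Between siELMO1 and siNT, 4 genes had a higher and 6 a lower response in siELMO1, where 16.7% and 17.8% of all tested genes did. Between siELMO1 and Mock the counts were 5 and 4, against 13.8% and 14.6%, and between siNT and Mock 8 and 1, against 15% and 16%. With the replicate number as a block the last count was 4. These 3 comparisons of responses share libraries. Without replicate 1 of siELMO1 at 0 h the counts were 5 and 5 for siELMO1 against siNT and 10 and 4 for siELMO1 against Mock. The higher count for siELMO1 against siNT was 2 without siELMO1 0 h replicate 2 or siELMO1 24 h replicate 1. For siELMO1 against Mock the higher count was 8 without Mock 24 h replicate 2 and 9 without siELMO1 24 h replicate 3. The lower count there was 1 without Mock 0 h replicate 1, 2 or 3 or siELMO1 0 h replicate 3. It was 2 without siELMO1 0 h replicate 2, Mock 24 h replicate 1, 2 or 3, or siELMO1 24 h replicate 1 or 3. The lower count for siNT against Mock was 2 without Mock 0 h replicate 2 or siNT 24 h replicate 1 and 3 without Mock 24 h replicate 3 or siNT 24 h replicate 3.

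EPAS1 had the largest difference among the 33 genes between siNT and Mock and between siELMO1 and siNT. It fell with a log2 change of -1.48 ± 0.06 (SE, adjusted p = 9.8e-13) in Mock, with -1.19 ± 0.06 (SE, adjusted p = 2.5e-11) in siELMO1 and with -0.40 ± 0.06 (SE, adjusted p = 2.7e-05) in siNT, where it was already low at 0 h. The difference was 1.08 ± 0.09 (SE, adjusted p = 8.2e-08) for siNT less Mock, -0.79 ± 0.09 (SE, adjusted p = 1.7e-06) for siELMO1 less siNT and 0.29 ± 0.09 (SE, adjusted p = 0.018) for siELMO1 less Mock. HIF1A rose in Mock by 0.51 ± 0.08 (SE, adjusted p = 3.9e-05) and had -0.02 ± 0.08 (SE, adjusted p = 0.86) in siNT and 0.18 ± 0.08 (SE, adjusted p = 0.073) in siELMO1. Its difference was -0.53 ± 0.12 (SE, adjusted p = 0.002) for siNT less Mock and -0.33 ± 0.12 (SE, adjusted p = 0.043) for siELMO1 less Mock. The latter lay just under the threshold, was -0.43 (adjusted p = 0.003) without replicate 1 of siELMO1 at 0 h and did not pass in 14 of 20 settings tried, 9 of them without 1 other library. SLC16A3 fell in Mock with a log2 change of -0.48 ± 0.10 (SE, adjusted p = 5.6e-04) and in siNT with -0.51 ± 0.10 (SE, adjusted p = 4.3e-04) but had 0.15 ± 0.10 (SE, adjusted p = 0.22) in siELMO1, where it stood at 204, 190 and 178 CPM at 24 h against 137, 118 and 128 in Mock and 205, 203 and 191 in siNT. Without replicate 1 of siELMO1 at 0 h its response in siELMO1 was 0.35 (adjusted p = 0.00014). The difference of SLC16A3 was 0.66 ± 0.14 (SE, adjusted p = 0.0017) for siELMO1 less siNT and 0.64 ± 0.14 (SE, adjusted p = 0.0031) for siELMO1 less Mock.

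SLC2A3 fell in Mock, with -0.38 ± 0.06 (SE, adjusted p = 3.1e-05), and in siELMO1, with -0.52 ± 0.06 (SE, adjusted p = 8.3e-07), and had 0.16 ± 0.06 (SE, adjusted p = 0.032) in siNT, a rise not kept without siNT 0 h replicate 1 or 2, without siNT 24 h replicate 1 or 2 or in 3 other settings. The difference was 0.54 ± 0.08 (SE, adjusted p = 1.0e-04) for siNT less Mock and -0.68 ± 0.08 (SE, adjusted p = 6.3e-06) for siELMO1 less siNT. HK1, at 266, 275 and 259 CPM in Mock, 312, 313 and 303 in siNT and 272, 292 and 293 in siELMO1 at 0 h and 220, 241 and 221 CPM in Mock, 337, 346 and 307 in siNT and 223, 234 and 206 in siELMO1 at 24 h, had -0.46 ± 0.08 (SE, adjusted p = 2.1e-04) for siELMO1 less siNT. BNIP3L fell with a log2 fold change of -0.79 in Mock, -0.26 in siNT and -0.72 in siELMO1, and the difference of siNT less Mock was 0.53 ± 0.12 (SE, adjusted p = 0.0022). VEGFA, at 15.3, 19.7 and 15 CPM in Mock, 14.6, 14.4 and 11.5 in siNT and 17.5, 14.8 and 15.3 in siELMO1 at 24 h, rose in Mock by 0.36 ± 0.10 (SE, adjusted p = 0.0054) (not kept without Mock 24 h replicate 2) and had -0.20 ± 0.10 (SE, adjusted p = 0.12) in siELMO1, a difference of -0.56 ± 0.15 (SE, adjusted p = 0.0077). PGAM1, at 250, 236 and 233 CPM in Mock, 250, 240 and 248 in siNT and 233, 222 and 213 in siELMO1 at 24 h, rose most in siELMO1, by 0.59 ± 0.05 (SE, adjusted p = 5.2e-08), with a difference of 0.46 ± 0.08 (SE, adjusted p = 2.3e-04) for siELMO1 less Mock. SLC2A1 fell further in siELMO1 than in Mock, with a difference of -0.37 ± 0.13 (SE, adjusted p = 0.0496) that lay just under the threshold, and -0.30 (adjusted p = 0.099) without replicate 1 of siELMO1 at 0 h.

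Several of the genes encode forms of the same protein, and their shares of the family's TPM shifted with the condition. Of the phosphofructokinase genes, PFKP held 67 ± 0.464% (SD, n = 3) in Mock at 0 h. PFKL held 15.2 ± 0.121% in Mock, 6.09 ± 0.611% in siNT and 19.9 ± 0.169% in siELMO1. At 24 h PFKL held 17.9 ± 0.625%, 7.87 ± 0.815% and 21.8 ± 0.61% in the same order. Of HIF1A and EPAS1 together, EPAS1 held 41.3 ± 0.211% in Mock, 20.6 ± 0.531% in siNT and 37.1 ± 1.67% in siELMO1 at 0 h. At 24 h it held 15 ± 0.392%, 16.6 ± 1.74% and 18.8 ± 1.62%. LDHA held 49.5 ± 0.656% of the TPM of LDHA and LDHB in Mock at 0 h and 39.4 ± 1.05% at 24 h. In siNT the shares were 51.7 ± 0.353% and 47.2 ± 0.253%. HK2 held 4.4 ± 0.285% of the TPM of HK1 and HK2 in Mock at 0 h and 10 ± 1.3% at 24 h. The shares were not tested. They depend on the length used, and with the gene counts over all exons, an alternative added after the data were seen, HK2 held 7.94% and 17.3% in Mock at 0 h and 24 h, LDHA 35.8% and 27.8%, EPAS1 39.2% and 13.9%, and PFKL 14.8% in Mock and 6.05% in siNT at 0 h.

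**Figure D5:**
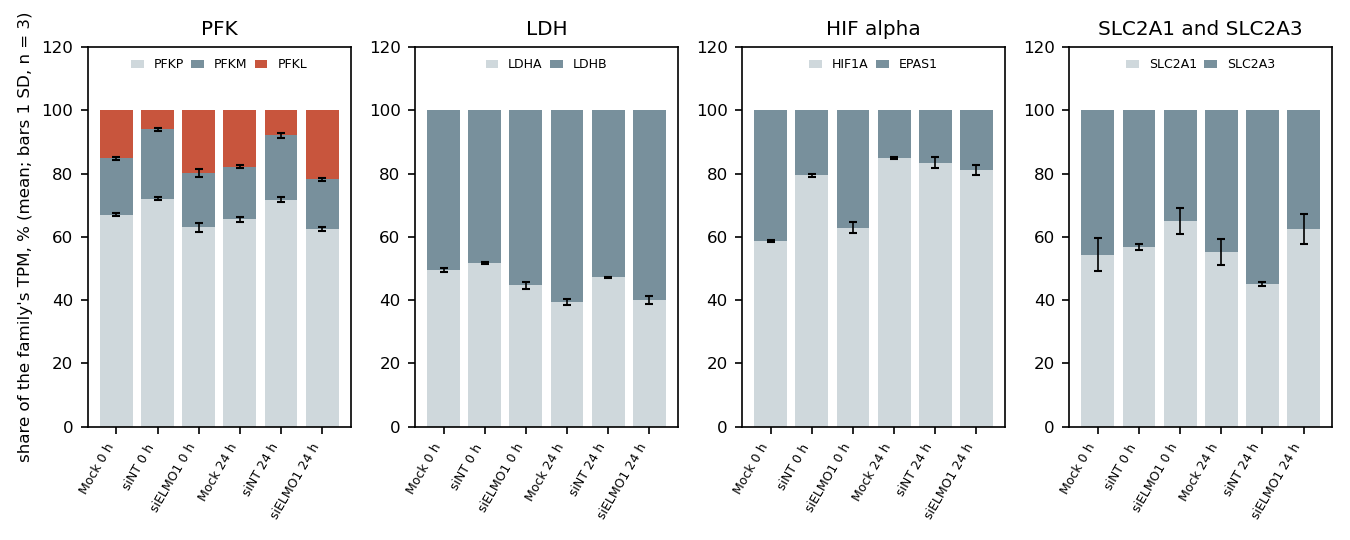
Mean share of the summed TPM, from transcript lengths, held by each gene of 4 families in the 6 conditions, stacked to 100%, with error bars of 1 SD over 3 libraries at the boundary of each segment. The PFKL segment is smallest in siNT, and the EPAS1 segment was 41.3% in Mock at 0 h and under 21% in the 3 conditions at 24 h and in siNT at 0 h.

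The wider pathways were read from lists drawn up by membership of the pathway, but with earlier results of these data known. A share near that of all tested genes is no result about a list. Of 36 other genes of glycolysis and pyruvate 24 were tested, and of 41 other oxygen-sensing genes and HIF targets 38. In siELMO1 against siNT at 0 h, 9 of the glycolysis and pyruvate genes (37.5%) fell and 7 (29.2%) rose, and 9 of the oxygen-sensing genes and HIF targets (23.7%) fell and 17 (44.7%) rose, where 31.3% of all tested genes fell and 31.3% rose. The median log2 fold changes were -0.13 and 0.14. Against Mock at 0 h, 4 of the glycolysis and pyruvate genes (16.7%) fell and 12 (50%) rose, and 8 of the oxygen-sensing genes and HIF targets (21.1%) fell and 22 (57.9%) rose, where 22.4% of all tested genes fell and 27.9% rose. In siNT against Mock at 0 h, 3 of the glycolysis and pyruvate genes (12.5%) fell and 11 (45.8%) rose, and 14 of the oxygen-sensing genes and HIF targets (36.8%) fell and 12 (31.6%) rose, where 24% of all tested genes fell and 27.6% rose. At 24 h in siELMO1 against siNT, 8 of the glycolysis and pyruvate genes (33.3%) fell and 7 (29.2%) rose, and 9 of the oxygen-sensing genes and HIF targets (23.7%) fell and 20 (52.6%) rose, where 26.5% of all tested genes fell and 26% rose. Against Mock at 24 h, 3 of the glycolysis and pyruvate genes (12.5%) fell and 10 (41.7%) rose, and 8 of the oxygen-sensing genes and HIF targets (21.1%) fell and 18 (47.4%) rose, where 22% of all tested genes fell and 21.6% rose. With poly(I:C) in Mock, 9 of the glycolysis and pyruvate genes (37.5%) fell and 5 (20.8%) rose, and 13 of the oxygen-sensing genes and HIF targets (34.2%) fell and 10 (26.3%) rose, where 29.6% of all tested genes fell and 30.7% rose. In siNT, 11 of the glycolysis and pyruvate genes (45.8%) fell and 5 (20.8%) rose, and 10 of the oxygen-sensing genes and HIF targets (26.3%) fell and 12 (31.6%) rose, where 25.2% of all tested genes fell and 28.6% rose. In siELMO1, 11 of the glycolysis and pyruvate genes (45.8%) fell and 8 (33.3%) rose, and 8 of the oxygen-sensing genes and HIF targets (21.1%) fell and 11 (28.9%) rose, where 26.9% of all tested genes fell and 28% rose.

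Some of these genes may share reads with others. 157 genes named as pseudogenes of 17 of the 36 genes are in the table, 65 of them for GAPDH, whose counts came to 0.252% of the GAPDH counts. For BNIP3 the share was 5.24%, and for the other tested genes it was under 1%. Of the 36 genes, 22 have an overlapping gene on the other strand and 20 on their own. For 10 of them an overlapping gene had more than 5% as many counts as the gene itself. On the other strand these are genes over PFKM (SENP1), PFKFB2 (YOD1), SLC16A3 (CSNK1D), BNIP3L (PNMA2), ANKRD37 (UFSP2) and PDK1 (PDK1-AS1). Their counts were 59.1%, 228%, 83.7%, 34.4%, 1110% and 8.8% of the gene's own. The kit marks strand, but whether the counting used it is not given in the sources used here. ENO2 overlaps LRRC23 on its own strand, with 31.3% as many counts, and PGK1 overlaps ATP7A, with 5.92%. The untested ALDOC and EGLN3 are the other 2 genes. The values of the overlapped genes are uncertain to that extent.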

How the data were processed

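RNA of 18 libraries was made with a stranded mRNA kit. Per the labels and the study's methods, the authors aligned reads to GRCh38 with STAR and derived estimated counts of genes and of transcripts with StringTie on GENCODE version 44. Versions of the tools are not given in the sources used here. The deposited estimated counts are whole numbers of reads back-calculated from coverage. They were used as deposited, and read length and strand settings of the counting were not given. The 12 comparisons were fitted with edgeR 4.0.16 (quasi-likelihood test, TMM factors from 0.958 to 1.06, 1 fit over all libraries, Benjamini-Hochberg over 15167 genes) in R 4.3.3, where the differences in response are contrasts of the same fit. DESeq2 1.42.0, limma 3.58.1, other scalings and filters, the replicate block and leaving out each library were alternatives. The test was checked on simulated data with known changes. It found 70.1% of 1.5-fold, 88.1% of 2-fold and 98.5% of 4-fold changes and called 0.0276% of unchanged genes. Changes under 1.5-fold were not simulated, and far fewer genes were changed there than were called in these data. TPM were computed from transcript counts and lengths, and PKM shares were tested by exact permutation. The biological coefficient of variation was 12.2%. Beyond that, p-values measure the spread between libraries of 1 cell line, pooled over the 6 conditions of 3 libraries each. A wide spread in 1 condition is thus averaged with the others.

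The genes and lists were chosen with earlier results of these data known. Genes given in every library are ELMO1, GAPDH, HIF1A, EPAS1 and up to 4 genes per comparison with the largest absolute log2 fold change among those past the threshold without overlap of the libraries (for differences in response, past the threshold), and other genes were described by role, with values added after they were seen. The main fit paired no libraries, siNT against Mock at 24 h included, and the replicate number entered only as a block in an alternative fit. By the rule used, 2 conditions counted as paired where deviations from the group mean correlated over 0.1 for all 3 numbers. This held only for Mock and siNT at 24 h, at 0.215, 0.277 and 0.326 over 9644 genes. At 24 h siNT and siELMO1 had 0.00135, 0.178 and 0.424, and Mock and siELMO1 had -0.00116, 0.152 and 0.358. Replicates 2 and 3 thus also deviated together there. The labels do not say what a number marks.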

Additional observations from a re-analysis of the deposited data

Results flagged for a closer look

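The change with poly(I:C) differed between transfections for some of the 33 genes, by an interaction in edgeR's quasi-likelihood test with Benjamini-Hochberg adjustment over 15167 genes. For siELMO1 less siNT, 4 genes had a higher and 6 a lower response (12.1% and 18.2%), where 16.7% and 17.8% of all tested genes did. The named ones were EPAS1 (-0.79 on the log2 scale), SLC2A3 (-0.68), SLC16A3 (0.66) and HK1 (-0.46). For siELMO1 less Mock, 5 were higher and 4 lower (15.2% and 12.1%, against 13.8% and 14.6%), with SLC16A3 at 0.64, VEGFA at -0.56, PGAM1 at 0.46 and SLC2A1 at -0.37. For siNT less Mock, 8 were higher and 1 was lower (24.2% and 3.03%, against 15% and 16%), with EPAS1 at 1.08, SLC2A3 at 0.54, HIF1A at -0.53 and BNIP3L at 0.53. A share near that of all tested genes is no result about these genes. The 3 comparisons share libraries, and the cause of the differences was not tested.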

How the results depend on the processing

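Of 243 calls of the 33 genes over the 12 comparisons, none reversed, 51 were lost in at least 1 setting and 50 without at least 1 library. PKM in siELMO1 less Mock and ENO2 in siELMO1 less siNT were lost in the most settings. SLC2A1 and HIF1A in siELMO1 less Mock followed, each lost in 14. TPI1 in siELMO1 less Mock, PGAM1 in siNT less Mock and with poly(I:C) in Mock, and PGK1 in siNT against Mock at 0 h came next. Examples with fewer losses are PDK1 in siNT against Mock at 0 h, lost in 9, and SLC2A3 with poly(I:C) in siNT, lost in 7. Scaled by library totals alone, the median log2 fold change in siELMO1 against Mock at 0 h was -0.32 for the enzymes and 0.16 for the other hypoxia-response genes. With poly(I:C) in Mock 4 genes rose, with medians of -0.33 and -0.06. In siELMO1 3 rose, with an enzyme median of -0.18. For the differences in response, siELMO1 less siNT had 2 higher, siELMO1 less Mock had 10 higher and 1 lower, and siNT less Mock had medians of 0.16 and -0.12. Without a low-count filter, 4 fell in siELMO1 against Mock at 24 h, 4 rose with poly(I:C) in Mock and 1 was lower in siELMO1 less Mock. With only the groups compared these were 4 for the first and 1 for the last, and 2 were lower in siNT less Mock. DESeq2 gave 9 higher in siELMO1 less Mock and 2 lower in siNT less Mock. DESeq2 size factors and filterByExpr each gave 1 lower in siELMO1 less Mock. With the replicate block, 4 were lower in siNT less Mock. Over all comparisons the block gained 13 calls and lost 0, but all 3 numbers met the rule for pairing only for Mock and siNT at 24 h. The causes were not tested.

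Leaving out 1 library at a time, the median of the other hypoxia-response genes ran from 0.34 to 0.52 in siELMO1 against siNT at 0 h, 0.19 to 0.35 against Mock at 0 h, 0.09 to 0.28 against siNT at 24 h and -0.31 to -0.17 in siNT against Mock at 24 h. It ran from 0 to 0.15 with poly(I:C) in Mock, -0.19 to -0.01 in siELMO1 and -0.22 to -0.10 in siNT less Mock. The count of genes ran from 3 to 7 lower in siELMO1 against Mock and 3 to 5 lower in siNT against Mock at 24 h, 4 to 7 higher with poly(I:C) in Mock, 2 to 5 higher in siELMO1 less siNT, 4 to 10 higher and 1 to 4 lower in siELMO1 less Mock, and 1 to 3 lower in siNT less Mock. Fits without 1 library keep 1 spread for all conditions. CA9, EGLN3 and ALDOC were untested because their counts fell below the filter.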
